A study of Mus musculus with 9 samples.

Results

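The 9 genes described here encode transcription factors that establish and keep the identity of hepatocytes: *Hnf4a*, *Foxa1*, *Foxa2*, *Foxa3*, *Cebpa*, *Cebpb*, *Nr5a2*, *Onecut1* and *Prox1*. They were picked by gene symbol from the 51912 genes of a liver RNA sequencing table, and all 9 were found once. The livers came from 9 fasted mice of 1 genotype, Apoe-/-Ndst1f/fAlb-Cre+ on a C57Bl/6 background. The null *Apoe* allele removes apoE from the whole animal, and Cre under the albumin promoter deletes the sulfotransferase gene *Ndst1* in hepatocytes, so the control mice carried both lesions as well. For 8 weeks, 5 mice received an antisense oligonucleotide (ASO) against *Apoc3* and 4 a control ASO, each at 50 mg/kg/week by intraperitoneal injection. Age, sex and diet were not given for these mice in the sources used here. The comparison asks whether lowering apoC-III was accompanied by a change in the mRNA of these factors, among which HNF4A is a known activator of *Apoc3* itself.

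HNF4A is a nuclear receptor that binds the regulatory regions of a large share of hepatocyte genes, including the apolipoproteins, and is required for the differentiated state of the cell. FOXA proteins open closed chromatin ahead of other factors in the developing endoderm, while C/EBPα and C/EBPβ are leucine zipper proteins of metabolic and acute phase control. NR5A2 (LRH-1) acts on bile acid and cholesterol genes, ONECUT1 (HNF6) on hepatocyte and bile duct development, and PROX1 on hepatoblast expansion and, outside hepatocytes, on lymphatic endothelium. These factors bind one another's promoters, so that the group forms a cross-regulated circuit.

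RefSeq (GRCm38.p6) gave 14 annotated starts for the 9 genes, and the 250 bases before each start were searched on both strands for 8 short motifs. The 4 sequences printed here are both starts of *Hnf4a*, because a single gene value sums transcripts from both, and the first starts of *Foxa2* and *Onecut1*, because these genes had the widest spread between livers. Capitals mark the motif found, and the sequences read 5′ to 3′ on the gene's strand.
Hnf4a, upstream start (P2), chr2:163506607-163506856, plus strand: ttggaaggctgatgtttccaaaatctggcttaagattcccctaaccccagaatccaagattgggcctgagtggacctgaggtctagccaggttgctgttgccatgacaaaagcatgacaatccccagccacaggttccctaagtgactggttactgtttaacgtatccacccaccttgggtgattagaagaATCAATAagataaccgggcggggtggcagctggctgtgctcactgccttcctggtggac
Hnf4a, downstream start (P1), chr2:163546905-163547154, plus strand: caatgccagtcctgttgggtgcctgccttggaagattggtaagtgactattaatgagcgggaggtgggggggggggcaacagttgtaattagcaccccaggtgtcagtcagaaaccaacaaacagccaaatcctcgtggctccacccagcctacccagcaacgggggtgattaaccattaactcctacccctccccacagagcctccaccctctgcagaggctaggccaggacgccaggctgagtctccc
Foxa2, chr2:148046970-148047219, minus strand: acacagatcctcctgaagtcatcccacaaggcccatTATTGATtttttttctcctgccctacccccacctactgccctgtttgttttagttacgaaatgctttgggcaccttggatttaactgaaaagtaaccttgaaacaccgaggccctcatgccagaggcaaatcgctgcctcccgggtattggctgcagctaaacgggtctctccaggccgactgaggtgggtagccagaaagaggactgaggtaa
Onecut1, chr9:74861671-74861920, plus strand: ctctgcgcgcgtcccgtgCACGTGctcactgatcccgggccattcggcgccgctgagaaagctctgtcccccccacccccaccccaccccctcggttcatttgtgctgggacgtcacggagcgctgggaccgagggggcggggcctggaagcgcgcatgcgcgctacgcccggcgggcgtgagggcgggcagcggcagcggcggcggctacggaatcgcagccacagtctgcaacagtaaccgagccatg
ATCAATA, the core recognised by ONECUT1, lay 59 to 53 bases before the upstream start of *Hnf4a* and, on the opposite strand, 214 to 208 bases before the start of *Foxa2*, and 1.86% of 32851 promoters held it. The E-box CACGTG, which clock proteins bind, lay 232 to 227 bases before the start of *Onecut1* and occurred in 6.02% of promoters. Of the FOXA motifs, TGTTTAC was found at *Foxa1* (3.17% of promoters) and TGTTTGC at *Prox1* (4.3%), and the C/EBP motif TTGCNNAA at *Nr5a2* (9.56%). No start region of the 9 genes held the HNF4A motifs CAAAGTCCA (0.384%) or CAAAGGTCA (0.426%) or the NR5A2 motif CAAGGNCA (5.53%) within these windows. A match describes letters only, and binding was not measured. The start region of *Cebpb* had the highest GC content of the 14, at 81.6%, and that of *Nr5a2* the lowest, at 43.2%.

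Values were deposited as TPM (transcripts per 1000000, corrected for gene length), which keep no sequencing depth, so that no counting error can be given for a single liver. Nuclear protein-coding genes held only 1.94% to 8.64% of the TPM, and the 7SL RNA genes *Rn7s1* and *Rn7s2* 64.0% to 83.6%. For the main comparison the protein-coding genes of each liver were therefore brought to a sum of 1000000 and then scaled by median-of-ratios factors, and such values are called rescaled. Control ASO replicate 4 stood apart, with the smallest protein-coding share and a factor of 0.491 against 0.919 to 1.42 in the other 8 livers. *Apoc3*, the gene targeted, was at 338 to 630 under the apoC-III ASO and at 3207 to 4342 under the control ASO. Its mean was 87.4% below that of the controls, with p = 0.0159 in an exact two-sided permutation test, the lowest value open to 5 against 4 livers, so the labels held in every liver. The hepatocyte gene *Alb* was at 15484 to 40179. All 14 hepatocyte markers had a mean of at least 1, a filter that 9 of 9 stellate cell markers also passed.

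None of the 9 factors changed beyond the threshold (0 of 9). In the apoC-III ASO group, 5 had a higher mean log2 value and 4 a lower one, and the log2 fold changes ran from −0.28 for *Foxa3* to 0.47 for *Foxa2*, with a median of 0.00036 against −0.0012 for all 11991 genes tested. A gene was called where limma-trend, adjusted by the Benjamini-Hochberg method, gave an adjusted p under 0.05 together with more than 1.5-fold, and 0.0167% of genes tested met this rule (*Apoc3* and *Anpep*, both lower). Of the 9 factors, 0 had a limma-trend p below 0.05 before adjustment, a threshold that 5.55% of genes passed. The values of the 2 groups overlapped in all 9 factors, while 1.83% of genes had groups that did not overlap. In tissue RNA, fewer cells of a type cannot be told apart from less RNA in each cell.

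Control ASO replicate 4 was the lowest of the 9 livers for 7 of the 9 factors, all but *Foxa3* and *Cebpb*, whereas it was the lowest for 21.8% of all genes tested. Without it, 3 factors were higher and 6 lower with a median log2 fold change of −0.19, and 0 of 9 had a limma-trend p below 0.05 before adjustment, against 5.32% of genes. Values without this liver are given beside the results it moved most.

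**Figure D1:**
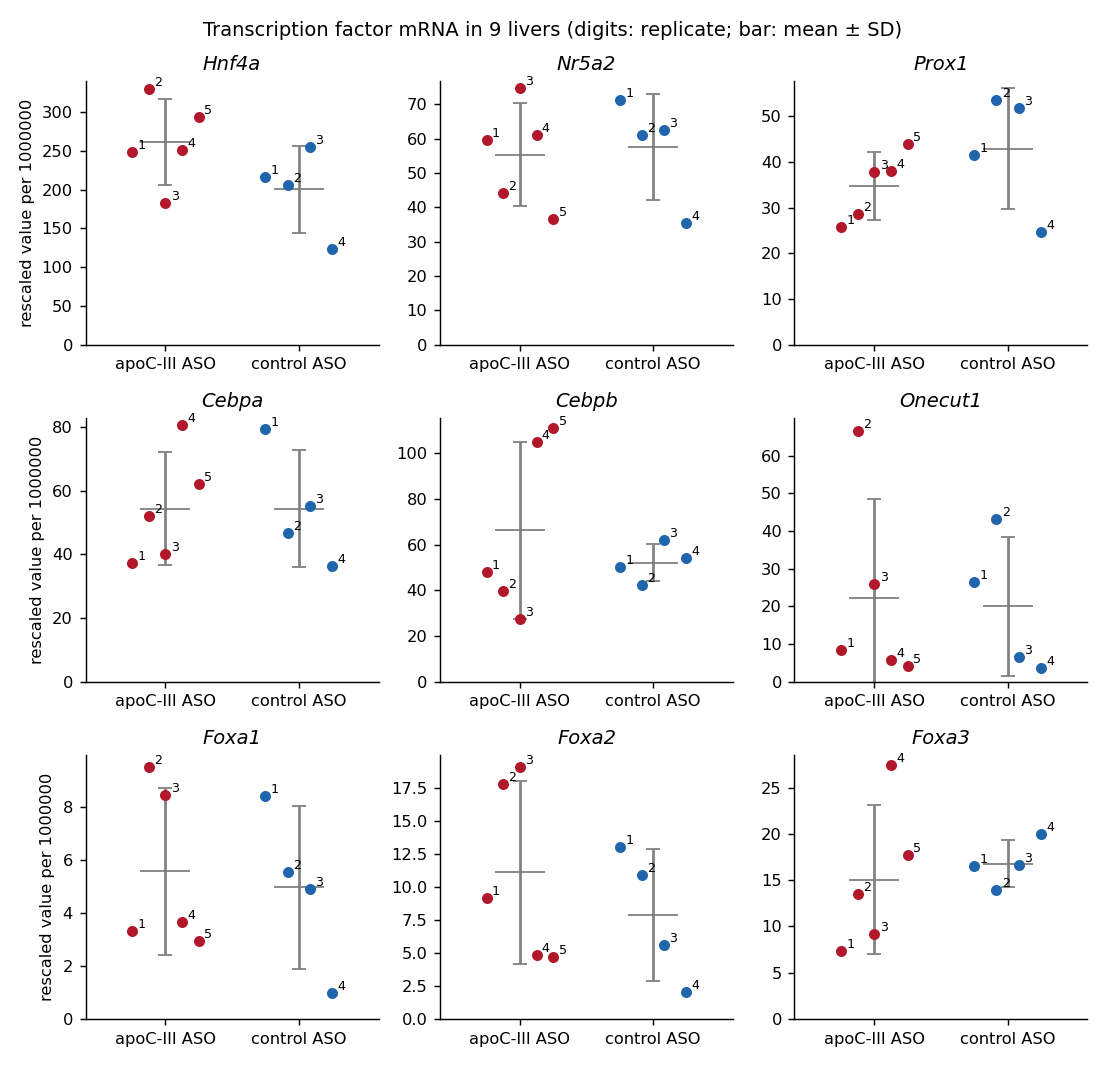
Rescaled value of each factor in each liver, on linear axes that start at 0. Points are livers with their replicate number, the wide bar is the group mean and the error bar ± 1 SD (n = 5 and 4), and the lower error bar of *Onecut1* in the apoC-III ASO group runs below 0 and is cut off there. The groups overlap in all 9 panels, and control ASO replicate 4 is the lowest point in 7 of them.

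*Hnf4a* (ENSMUSG00000017950, chromosome 2 of GRCm38 from 163506808 to 163572910, plus strand) was the most abundant of the 9 factors. It had rescaled values of 248, 330.0, 183, 252 and 294 in apoC-III ASO replicates 1 to 5, and of 217, 206, 256 and 123 in control ASO replicates 1 to 4. The groups overlapped, since apoC-III ASO replicate 3 lay below 3 of the 4 controls, and control replicate 4 was the lowest of all. The mean was 261 ± 55.2 (SD, n = 5) against 200.4 ± 55.9 (SD, n = 4). The log2 fold change of 0.40 (SE 0.26) corresponded to 1.32-fold with a 95% interval of 0.892 to 1.96 (limma-trend, Benjamini-Hochberg adjusted p = 0.900). Without control ASO replicate 4 it was 0.19. The interval included both no change and an increase by nearly 2 times.

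*Hnf4a* was also set against its target gene within each liver. In TPM as deposited, log2 *Apoc3*/*Hnf4a* was 0.40 to 1.32 under the apoC-III ASO and 3.78 to 5.14 under the control ASO, so the groups were far apart. The mean was 0.80 ± 0.34 (SD, n = 5) against 4.21 ± 0.62 (SD, n = 4), a difference of −3.42 (exact two-sided permutation test, p = 0.0159, or 0.0794 after Benjamini-Hochberg adjustment over the 5 ratios tested). This ratio carries the knockdown of *Apoc3* itself and does not depend on how a library was scaled.

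*Atg2b*, a lipid transfer gene of autophagy, and *Adck1* were among the 3 genes tested whose patterns over the 9 livers were nearest to that of *Hnf4a*, each with a root mean square difference of 0.15 between the centred log2 values. *Atg2b* was at 27.6, 36.8, 22.7, 30.5 and 30.8 in apoC-III ASO replicates 1 to 5 and at 21.6, 29.7, 32.8 and 14.8 in control ASO replicates 1 to 4. Control ASO replicate 4 was the lowest liver for both genes, but *Atg2b* was picked for its likeness to *Hnf4a* over these same livers. The antisense gene *Hnf4aos*, which overlaps *Hnf4a* over 34913 bases, was listed at 0.0552 to 0.378 TPM, far below the 1.17 to 21.5 TPM of *Hnf4a*. The libraries were stranded, but whether the quantification used strand is not stated, so reads of *Hnf4a* and *Hnf4aos* may not have been kept apart.

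The 3 FOXA genes lie on separate chromosomes, *Foxa1* on 12, *Foxa2* on 2 and *Foxa3* on 7, and were all present at low levels. *Foxa2*, which also takes part in the fasting response, had rescaled values of 9.15, 17.8, 19.1, 4.82 and 4.72 in apoC-III ASO replicates 1 to 5, and of 13.0, 10.9, 5.57 and 2.03 in control ASO replicates 1 to 4. *Foxa1*, its closest relative, had 3.30, 9.53, 8.45, 3.66 and 2.92 and then 8.43, 5.55, 4.90 and 0.977. *Foxa3*, known as a main FOXA form of the adult liver, had 7.31, 13.5, 9.18, 27.5 and 17.8 and then 16.5, 13.9, 16.7 and 20.0. *Foxa1* and *Foxa2* were high in apoC-III ASO replicates 2 and 3 and control ASO replicate 1 and lowest in control ASO replicate 4, while *Foxa3* was high in apoC-III ASO replicates 4 and 5 and in control ASO replicate 4.

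The log2 fold changes were 0.21 (SE 0.47) for *Foxa1*, 0.47 (SE 0.52) for *Foxa2* and −0.28 (SE 0.33) for *Foxa3*, with limma-trend Benjamini-Hochberg adjusted p of 0.980, 0.947 and 0.952. The 95% intervals ran from 0.573- to 2.35-fold for *Foxa1*, from 0.630- to 3.04-fold for *Foxa2* and from 0.497- to 1.37-fold for *Foxa3*. Without control ASO replicate 4 the value of *Foxa1* was −0.25 and that of *Foxa2* 0.026, so the direction of the first and most of the size of the second came from that liver. In TPM as deposited all 3 genes had a mean under 1 and were not tested.

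The makeup of FOXA mRNA differed widely between livers of the same group. *Foxa3* made up 37.0%, 33.1%, 24.98%, 76.4% and 69.9% of the summed FOXA TPM in apoC-III ASO replicates 1 to 5, and 43.5%, 45.8%, 61.4% and 87.0% in control ASO replicates 1 to 4. *Foxa2* made up 46.3%, 43.6%, 52.0%, 13.4% and 18.6% in the first group and 34.3%, 35.9%, 20.5% and 8.80% in the second. Hence *Foxa2* was the leading form in apoC-III ASO replicates 1 to 3, and *Foxa3* in the other 6 livers. The mean share of *Foxa3* was 48.3% ± 23.2 (SD, n = 5) against 59.4% ± 20.0 (SD, n = 4), a difference of −11.1 percentage points (exact two-sided permutation test, p = 0.444, or 0.741 after Benjamini-Hochberg adjustment over the 5 ratios). The differences were 9.89 points for *Foxa2* (p = 0.349 in the exact permutation test, adjusted 0.741) and 1.24 points for *Foxa1* (p = 0.841 in the same exact test, adjusted 0.841), both within the spread between livers. Without control ASO replicate 4 the differences were −1.94 points for *Foxa3*, 4.52 for *Foxa2* and −2.58 for *Foxa1*. The shares rest on low TPM, and with 0.1 TPM added to each gene the differences were −4.73, 6.10 and −1.37 points.

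**Figure D2:**
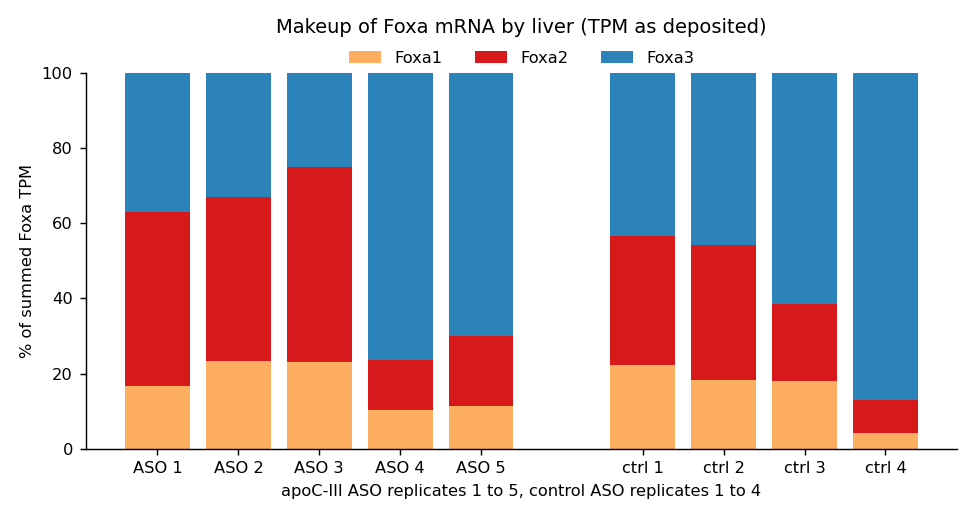
Share of each FOXA gene in the summed TPM of the 3 genes, in percent, for each liver. *Foxa3* (blue, top) runs from 24.98% in apoC-III ASO replicate 3 to 87.0% in control ASO replicate 4, and the apoC-III ASO livers cover most of that range.

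C/EBPα drives gluconeogenic and glycogen genes in the quiescent hepatocyte, and C/EBPβ shares its binding sites but rises with cyclic AMP and cytokines. *Cebpa* (chromosome 7) had rescaled values of 37.2, 52.1, 40.0, 80.5 and 62.2 in apoC-III ASO replicates 1 to 5, and of 79.3, 46.9, 55.1 and 36.2 in control ASO replicates 1 to 4. *Cebpb* (chromosome 2) had 47.9, 39.8, 27.5, 104.8 and 111 and then 50.1, 42.4, 61.8 and 54.2. For *Cebpb*, apoC-III ASO replicates 4 and 5 lay above every control and replicates 2 and 3 below every control, while the controls were close together.

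The group means of *Cebpa* were nearly equal at 54.4 ± 17.7 (SD, n = 5) and 54.4 ± 18.3 (SD, n = 4), with a log2 fold change of 0.00036 (SE 0.29, 95% interval 0.645- to 1.55-fold, limma-trend Benjamini-Hochberg adjusted p = 0.999). *Cebpb* had means of 66.2 ± 38.8 (SD, n = 5) and 52.1 ± 8.12 (SD, n = 4), with a log2 fold change of 0.15 (SE 0.39, 95% interval 0.615- to 1.99-fold, limma-trend Benjamini-Hochberg adjusted p = 0.990). The sign of both changed when apoC-III ASO replicate 4 was left out, to −0.15 for *Cebpa* and −0.067 for *Cebpb*, and that of *Cebpa* also without control ASO replicate 4 (−0.17). The ratio *Cebpb*/*Cebpa* was 1.29, 0.765, 0.687, 1.30 and 1.79 in apoC-III ASO replicates 1 to 5 and 0.632, 0.904, 1.12 and 1.497 in control ASO replicates 1 to 4. The mean log2 ratio was 0.13 against −0.015, a difference of 0.15 that was well within the spread (exact two-sided permutation test, p = 0.698, or 0.841 after Benjamini-Hochberg adjustment over the 5 ratios). *Tmem189* overlaps *Cebpb* on the other strand over 908 bases and was listed at 0.0654 to 0.357 TPM, and *Gm45091* overlaps *Cebpa* over 313 bases at 0 to 0.219 TPM.

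*Onecut1* (chromosome 9) was the most variable of the 9. It had rescaled values of 8.56, 66.4, 25.98, 5.72 and 4.11 in apoC-III ASO replicates 1 to 5, and of 26.6, 43.2, 6.67 and 3.55 in control ASO replicates 1 to 4. The highest liver was 18.7-fold above the lowest, and both groups held livers above 40 and livers below 7. With this spread the 95% interval ran from 0.286- to 3.47-fold and held both a 2-fold decrease and a 2-fold increase. The log2 fold change was −0.0068 (SE 0.82, limma-trend, Benjamini-Hochberg adjusted p = 0.999). Single livers set its sign, since it was −0.56 without control ASO replicate 4, −0.57 without apoC-III ASO replicate 2 and 0.53 without control ASO replicate 2. *Onecut2*, its paralog, had a log2 fold change of −0.30 (SE 0.38).

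*Nr5a2* (chromosome 1) had rescaled values of 59.7, 44.3, 74.9, 61.0 and 36.7 in apoC-III ASO replicates 1 to 5, and of 71.3, 61.1, 62.5 and 35.4 in control ASO replicates 1 to 4. The lowest liver of each group was replicate 5 or replicate 4, and the other values were within 44.3 to 74.9. Its log2 fold change was −0.054 (SE 0.27, 95% interval 0.637- to 1.46-fold, limma-trend Benjamini-Hochberg adjusted p = 0.992), and −0.27 without control ASO replicate 4.

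*Prox1* (chromosome 1) came nearest to a separation of the groups once control ASO replicate 4 was set aside. It had rescaled values of 25.8, 28.6, 37.8, 38.0 and 43.9 in apoC-III ASO replicates 1 to 5, and of 41.5, 53.7, 51.7 and 24.7 in control ASO replicates 1 to 4. Control replicates 2 and 3 lay above all 5 apoC-III ASO livers and replicate 1 above 4 of the 5, whereas replicate 4 lay below all of them. The mean was 34.8 ± 7.44 (SD, n = 5) against 42.9 ± 13.3 (SD, n = 4), and the log2 fold change was −0.26 (SE 0.27, 95% interval 0.556- to 1.25-fold, limma-trend Benjamini-Hochberg adjusted p = 0.943). Without control ASO replicate 4 it was −0.50.

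In TPM as deposited and without that liver, a setting added after seeing the data, *Prox1* ran from 1.25 to 1.94 TPM under the apoC-III ASO and from 2.70 to 3.34 TPM in 3 controls. These groups did not overlap, as in 3.55% of genes, and *Prox1* had a p below 0.05 before adjustment, as did 5.47% of genes. Its log2 fold change there was −0.59 with a limma-trend Benjamini-Hochberg adjusted p of 0.811, where the median of all genes was −0.23 and all 6 factors tested were lower. In TPM as deposited with all livers 0 of 6 factors tested had a limma-trend p below 0.05 before adjustment, against 2.01% of genes, and 0 were called, against 0.223%. The overlapping genes *Prox1os* and *Gm28172* were listed at 0.0148 to 0.333 TPM and at 0 to 0.0982 TPM.

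By median rescaled value over the 9 livers the order was *Hnf4a* (248), *Nr5a2* (61.0), *Cebpa* (52.1), *Cebpb* (50.1), *Prox1* (38.0), *Foxa3* (16.5), *Foxa2* (9.15), *Onecut1* (8.56) and *Foxa1* (4.90). *Hnf4a* was above *Nr5a2* in 9 of 9 livers, with ranges that did not overlap, and it stood at percentile 96.9 of mean level among all genes tested. *Prox1* was above *Foxa3* and *Onecut1* above *Foxa1* in 9 of 9 livers, although their ranges overlapped. *Foxa2* was above *Onecut1* in only 2 of 9 livers, and its mean was lower (9.68 against 21.2), so their order by median did not hold in most livers. *Nr5a2* was above *Cebpa* in 4 of 9 livers and *Cebpa* above *Cebpb* in 4 of 9, so these 3 did not differ beyond their spread.

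The spread between livers of 1 group differed among the 9. The SD within groups of log2 values was 1.54 for *Onecut1*, at percentile 98.8 of all genes tested, 0.93 for *Foxa2* (percentile 93.7), 0.82 for *Foxa1* (percentile 90.2) and 0.67 for *Cebpb* (percentile 82.2). It was 0.38 for *Hnf4a* (percentile 37.4), 0.40 for *Prox1* (percentile 42.0), 0.42 for *Nr5a2* (percentile 45.2), 0.46 for *Cebpa* (percentile 53.4) and 0.55 for *Foxa3* (percentile 69.0), where the median of all genes was 0.44. Compared with genes of like level, *Onecut1* was at percentile 98.6 and *Hnf4a* at percentile 41.9.

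**Figure D3:**
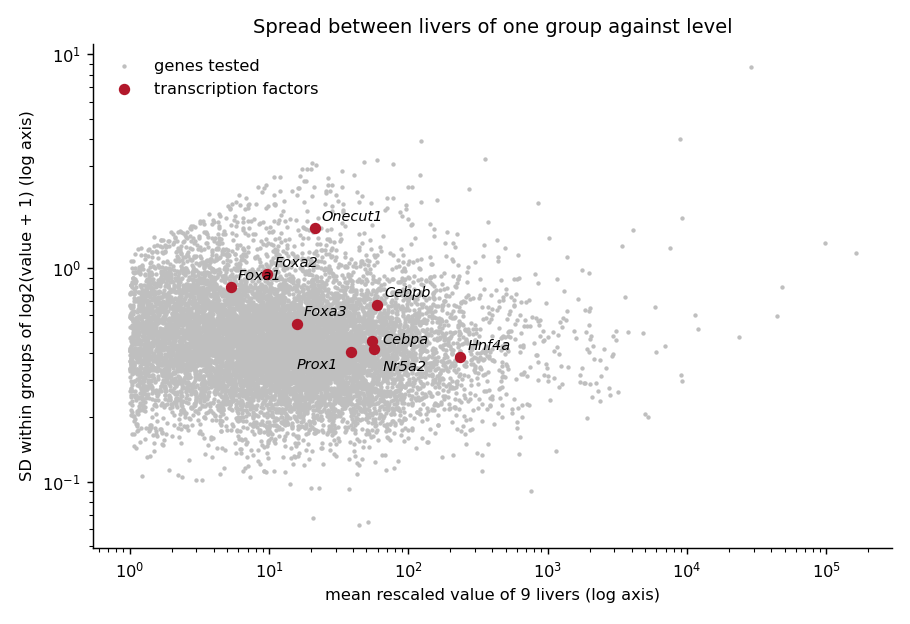
SD within groups of log2(rescaled value + 1) against the mean rescaled value of 9 livers, both on log axes, for all genes tested (grey) and the 9 factors (red). *Onecut1* lies near the top of the cloud at 1.54 and *Hnf4a* within it at 0.38.

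**Figure D4:**
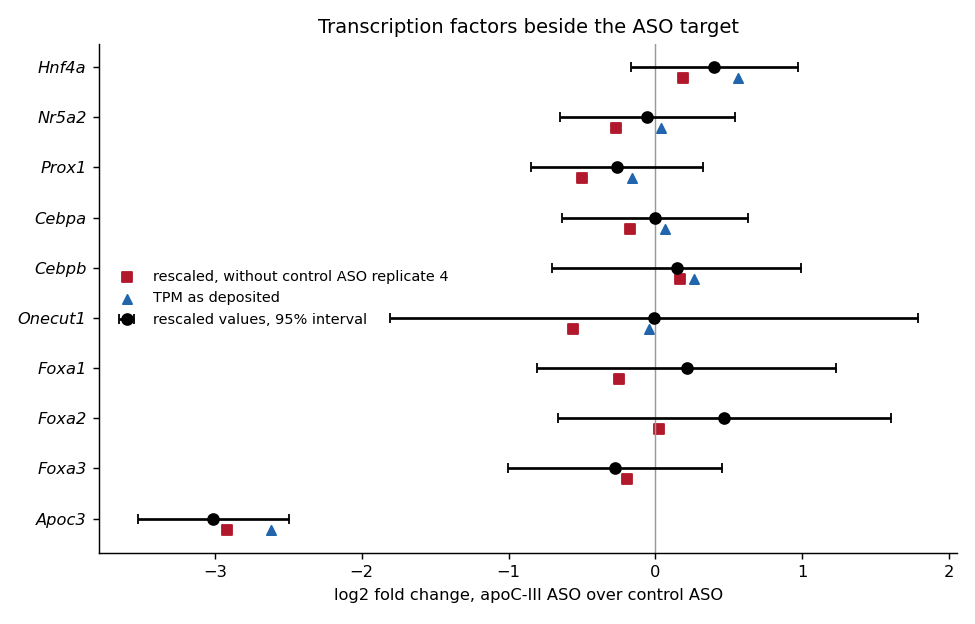
Log2 fold change of apoC-III ASO over control ASO livers from limma-trend, with 95% intervals (black), for rescaled values of all 9 livers. Squares leave out control ASO replicate 4 and triangles use TPM as deposited, in which the FOXA genes were not tested. All 9 factor intervals include 0, and that of *Apoc3* (−3.01) lies entirely below it.

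Known targets of the factors were counted from lists written from general knowledge. Of 21 HNF4A targets tested, 5 were higher and 16 lower with a median log2 fold change of −0.21. The 1 called was *Apoc3*, which the ASO targets directly (−3.01, SE 0.23, limma-trend Benjamini-Hochberg adjusted p = 3.88e-04). The next by p were the coagulation factor gene *F9* (−0.47) and *Cyp7a1*, the rate-limiting enzyme of bile acid synthesis (−0.98), neither of which reached a limma-trend p below 0.05 before adjustment. The split was 6 higher and 15 lower when control ASO replicate 4 was left out, and *Cyp7a1* (−1.45) then passed that unadjusted threshold beside *Apoc3* (limma-trend adjusted p = 0.802). *F9* was at 112 in control ASO replicate 4 and at 44.1 to 74.8 in the other livers. Of 8 FOXA targets 2 were higher and 6 lower (median −0.15), led by the urea cycle gene *Cps1* (−0.30), *Tat* (−0.47) and the gluconeogenic *Pck1* (−0.21). Without control ASO replicate 4 they split 4 and 4, with *Igfbp1* (1.14) higher at a limma-trend p below 0.05 before adjustment. In that fit 5.32% of all genes tested had such a p.

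Of 8 metabolic C/EBP targets 0 were higher and 8 lower (median −0.24), led by the glycogen synthase *Gys2* at −0.93, and 0 reached a limma-trend p below 0.05 before adjustment. Without control ASO replicate 4 the split was 3 higher and 5 lower with a median of −0.0083, so the common direction of all 8 rested on that liver. *Gys2* stayed at −0.99 and *Cps1* at −0.28 without it, whereas *Tat* turned to 0.11. Control ASO replicate 4 had 4222 of *Tat*, a tyrosine catabolic enzyme, against 792 to 934 in the other controls. Of 14 acute phase C/EBP targets 9 were higher and 5 lower (median 0.13). The 3 with the smallest p were serum amyloid genes, *Saa3* (0.86, SE 0.33), *Saa2* (0.89, SE 0.43) and *Saa1* (0.51, SE 0.39). *Saa3* was the 1 of 14 with a limma-trend p below 0.05 before adjustment (adjusted p = 0.872). This threshold was passed by 5.55% of all genes tested. *Saa3* was at 34.1 to 83.02 under the apoC-III ASO and at 18.8 to 51.6 under the control ASO, which overlapped. Reads could be divided between these similar genes.

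Of 6 NR5A2 targets 3 were higher and 3 lower (median 0.082). By p they were led by the HDL receptor *Scarb1* (0.52, SE 0.26), *Cyp7a1* (−0.98, SE 0.51) and the bile acid enzyme *Cyp8b1* (−0.49, SE 0.32). The median was −0.049 when control ASO replicate 4 was left out, and *Cyp7a1* passed the unadjusted threshold, as above. Of 6 ONECUT1 targets 4 were higher and 2 lower (median 0.050), with *Pck1* at −0.21, and without that liver the split was 3 and 3. Many genes stand on more than 1 of these lists, so the counts are not separate from each other.

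Of 24 partner factors of the circuit 11 were higher and 13 lower (median −0.040). At a limma-trend p below 0.05 before adjustment there were 0, against 5.55% of all genes tested. The smallest p belonged to *Tbx3*, a T-box factor of the hepatoblast (−0.55, SE 0.26), the nuclear receptor *Nr1i3* (CAR, −0.46) and *Gata4* (−0.47). The split was 7 and 17 when control ASO replicate 4 was left out. Among 7 fetal liver genes 1, *Igf2*, passed the filter (−0.78), with 11.2 in control ASO replicate 4 and 0.229 to 1.09 in the other 8 livers. Alpha-fetoprotein (*Afp*) was at 0 to 0.749 and *Dlk1* at 0 in all livers but 1.

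Some of the 9 factors are also made outside hepatocytes, so markers of those cells are set beside them. The summed value of 7 cholangiocyte markers was 45.7 to 96.1 in apoC-III ASO and 49.9 to 126.5 under the control ASO, carried mainly by *Spp1*, with *Krt7* under 1.05 and *Cftr* at 0 in 5 of 9 livers. Of 4 tested, 2 were higher and 2 lower, with *Sox9* at 0.47 and *Krt19* at −0.36. *Spp1* (−0.13) was at 117 in control ASO replicate 4 and at 35.5 to 76.8 in the other 8 livers, while *Onecut1*, *Foxa1* and *Foxa2* were lowest in that liver. Of 9 macrophage markers tested 6 were higher and 3 lower, led by *C1qa* (0.46), *C1qc* (0.38) and *Marco* (0.68), and *Cd5l*, the most abundant, was at 0.14. Their sum was 120 to 179 in apoC-III ASO and 109 to 181 under the control ASO.

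Of 10 endothelial markers tested 6 were higher and 4 lower, with *Flt4* at 0.55, *Lyve1* at 0.52, *Clec4g* at 0.497 and the most abundant, *Stab1*, at −0.15. Their sum was 179 to 437 and 210 to 360. The lymphatic marker *Pdpn*, relevant to *Prox1*, was at 0 to 0.466. Of 9 stellate cell markers 2 were higher and 7 lower (median −0.27), and 2 were lower at a limma-trend p below 0.05 before adjustment, the retinol-esterifying enzyme *Lrat* (−0.89, adjusted p = 0.843) and *Dcn* (−0.57, adjusted p = 0.877). A limma-trend p below 0.05 before adjustment was met by 5.55% of all genes tested. *Lrat* was at 0.988 to 1.65 in apoC-III ASO and 2.32 to 5.35 under the control ASO, without overlap, as in 1.83% of genes. Its level was low, at percentile 12.9 of genes tested. With control ASO replicate 4 left out, *Lrat* (−0.71) kept a limma-trend p below 0.05 before adjustment and *Dcn* (−0.36) did not. *Col1a1* was at −0.75. Of 10 pancreas markers, *Cela1* was the 1 to pass the filter (−0.13), and *Ins1*, *Ins2* and *Gcg* were at 0 in all livers. Hepatocyte markers were 1 higher and 13 lower (median −0.19), led by *Apoa1* (−0.34), *Ass1* (−0.47) and *Cps1* (−0.30), and 6 and 8 without control ASO replicate 4. The part of other cells in the values of the 9 factors was not tested.

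Circadian genes, chosen after their values were seen, divided the apoC-III ASO livers, and their values are set beside those of the 9 factors. *Arntl*, which encodes the clock activator BMAL1, was at 17.9, 11.2, 31.3, 0.749 and 2.78 in apoC-III ASO replicates 1 to 5 and at 0.324 to 2.49 under the control ASO. *Dbp*, an output gene of the clock that is read out in the opposite phase, was at 2.96, 22.4, 2.73, 154 and 98.8 in the same 5 livers and at 69.0 to 104.4 under the control ASO. Hence apoC-III ASO replicates 1 to 3 were high in *Arntl* and low in *Dbp*, and replicates 4 and 5 were close to the controls in both. *Clock* was at 25.2 to 26 in replicates 1 to 3 and at 10.02 to 12.01 in the other 6 livers. Beside this, *Cebpb*, *Foxa3*, *Cebpa* and, narrowly, *Prox1* were lower in apoC-III ASO replicates 1 to 3 than in replicates 4 and 5. *Foxa2* and *Onecut1* were higher in replicates 1 to 3. How many of all genes tested divide these 5 livers in this way was not counted. All 4 controls had little *Arntl*. In control ASO replicates 1 and 2, *Onecut1* was at 26.6 and 43.2 and *Foxa2* at 13.0 and 10.9. Both genes were lower in control ASO replicates 3 and 4. *Cebpb* was at 42.4 to 61.8 in the 4 controls. *Prox1* was higher in control ASO replicates 1 to 3 than in apoC-III ASO replicates 1 to 3, and lowest in control ASO replicate 4. *Hnf4a*, *Foxa1* and *Nr5a2* did not follow the division of the apoC-III ASO livers. *Hnf4a* was at 183 to 330.0 in apoC-III ASO replicates 1 to 3 and at 252 and 294 in replicates 4 and 5. The part of the clock phase of each liver in these values was not tested, and the hour of collection is not given in the sources used here.

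**Figure D5:**
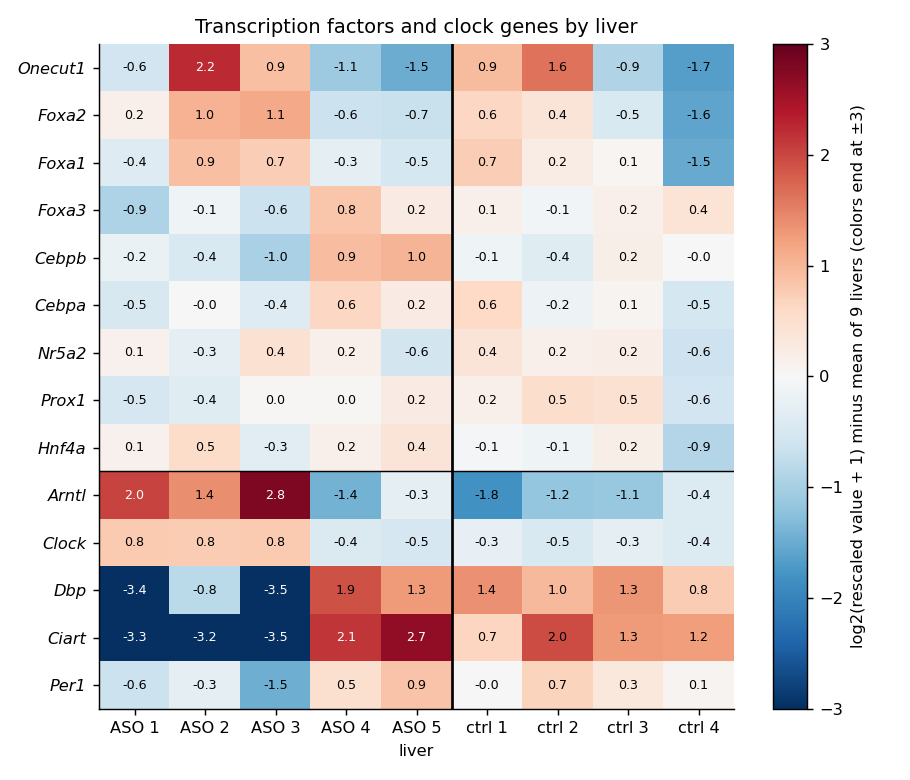
Log2(rescaled value + 1) minus the mean of the 9 livers for the 9 factors and 5 clock genes (rows) in each liver (columns). Colors end at ±3 and the number in each cell is the value. ApoC-III ASO replicates 1 to 3 differ from replicates 4 and 5 in the clock genes and in *Foxa3*, *Cebpb*, *Cebpa*, *Foxa2*, *Onecut1* and, narrowly, *Prox1*. The rows of *Hnf4a*, *Foxa1* and *Nr5a2* do not follow that division.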

How the data were processed

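Liver RNA depleted of ribosomal RNA was sequenced from stranded single-end libraries. The authors deposited TPM per gene. The submitters' processing notes name kallisto 0.43.1 and GRCm38, whereas the methods of the study describe read counting after alignment with STAR, and those counts were not used here. The deposited TPM keeps no depth, so precision rests on the number of livers. Gene identifiers were matched to GENCODE M21 (51719 of 51912), and 21857 nuclear protein-coding genes were kept, summed to 1000000 in each liver and scaled by median-of-ratios factors from 12263 genes. Differences were fitted with limma 3.58.1 (R 4.3.3, eBayes with trend) on log2(value + 1) for genes with a mean of at least 1 in the 9 livers, so fold changes of low genes are understated. This fit replaces the count test of the study, whose thresholds were kept. Ratios within a liver were tested with exact permutation in scipy 1.17.1 (Python 3.11.15, numpy 2.4.6, pandas 2.3.3, matplotlib 3.10.9). P-values weigh the difference between groups against the spread between mice. Each mouse had 1 library, so the spread of mice and that of libraries cannot be told apart.

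The 9 factors, the gene lists and the rules were chosen with earlier results of these data known. The genes named are the 9 factors, *Apoc3*, genes overlapping a factor on the opposite strand, the called genes and the 3 smallest p of each list, the most abundant marker of each other cell type and the 3 patterns nearest to *Hnf4a*. Other genes named, including the clock genes, *Onecut2*, *Anpep* and single list members beyond the 3, were chosen after their values were seen. Some genes that this rule picks are not reported here. Alternatives were TPM as deposited, other scalings, pseudocounts of 0.1 and 0.5, other filters and eBayes settings, array weights, each liver left out and a replicate block. The limma fit was tested on simulated rescaled values with independent normal noise, whereas the scaling, the ratio tests and the outlier test were not.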

Additional observations from a re-analysis of the deposited data

Results flagged for a closer look

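Single livers lay far from the rest of their group by Dixon's test in 22 of 258 groups of values examined, and chance alone flags about 1 in 20 groups. None of the 9 factors was among them.

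In control ASO replicate 4, log2 *Apoc3*/*Hnf4a* was 5.14, against 3.78 to 3.98 in the other controls. The same liver had 3145 of *Pck1* (1720 to 1790 in the other controls), 4222 of *Tat* (792 to 934), 515 of *Igfbp1* (14.6 to 59.1) and 90.9 of the coactivator gene *Ppargc1a* (13.3 to 24.0). It also had 390.5 of *Ugp2*, 11.2 of *Igf2* and 1.93 of *Nr1d1*, where the other controls had 106 to 152, 0.481 to 0.575 and 24.6 to 26.1. These genes include the fasting-induced targets of the FOXA and C/EBP factors, and the values of the factors themselves are given above.

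Among the other controls, replicate 1 had 23.3 of *Nr2f2* (10.7 to 12.2 in the rest), and replicate 2 had 10960 of *Apoa2* (6450 to 6821). Replicate 3 had 986 of *Cps1* (1130 to 1157), 9.71 of *Marco* (0.851 to 1.89) and 56.4 of *Orm2* (18.6 to 21.3).

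In the apoC-III ASO group, replicate 4 had 24.3 of *Zhx2*, a repressor of fetal liver genes (3.23 to 6.54 in the rest), 129 of *Rxra* (102 to 108), 264 of *Ugp2* (109 to 150.4) and 3.98 of *Rgs5* (2.33 to 2.75). Replicate 1 had 6.69 of *Cebpg* (13.6 to 16.0). Replicate 3 had 147 of *F11* (75.2 to 94.9) and 4.59 of *Sox9* (1.47 to 2.19). Replicate 5 had 103 of *Dcn* (70.8 to 75.6) and 4.40 of *Krt19* (0 to 1.23).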

How the results depend on the processing

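No factor was called under any of the 24 alternatives. Of the 22 settings that gave their p-values, 20 left 0 factors at an unadjusted p under 0.05, and the exceptions had 1 each: *Hnf4a* (log2 fold change 0.88) without median-of-ratios factors, where 1328 of 12051 genes had such a p, the median of all genes was 0.41 and 9 factors were higher, and *Prox1* in TPM as deposited without control ASO replicate 4 (288 of 5269 genes). In that last setting 0 factors were higher, 1 gene was called higher, and the values of *Hnf4a*, *Cebpa* and *Cebpb* were −0.14, −0.39 and −0.10. TPM as deposited called 5 genes higher and 6 lower, gave *Nr5a2* 0.042 and left *Apoc3* at −2.62 (limma-trend adjusted p = 0.104). Median-of-ratios TPM tested 5 factors (3 higher) and called 1 gene higher and 1 lower. Without factors, 1 gene was called lower and *Foxa3*, *Nr5a2*, *Onecut1* and *Prox1* turned to 0.17, 0.41, 0.39 and 0.20. With no filter on low values, or eBayes without a trend, 1 gene was called lower. Quantile normalization gave *Onecut1* 0.0044. Array weights (0.35 for control ASO replicate 4) left 3 factors higher, with *Foxa1* at −0.0017, *Cebpa* at −0.22, *Cebpb* at −0.042 and *Onecut1* at 0.024. Adding 0.1 TPM before the ratio turned the difference in *Foxa1* share to −1.37 points and left that of *Foxa2* at 6.10 and that of *Foxa3* at −4.73. The cause of these changes was not tested.

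With each liver left out, calls were 0 to 1 higher and 1 to 3 lower, and 3 to 7 factors were higher. *Apoc3* ran from −3.14 to −2.91, *Hnf4a* from 0.19 to 0.54, *Foxa1* from −0.25 to 0.501, *Cebpa* from −0.17 to 0.198, *Cebpb* from −0.088 to 0.41, *Nr5a2* from −0.27 to 0.080 and *Onecut1* from −0.57 to 0.53. The log2 *Cebpb*/*Cebpa* difference ran from −0.070 to 0.35 and the *Foxa1* share from −2.58 to 3.41 points.

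Whether replicate numbers pair the livers was not settled. Same-numbered livers had correlations of deviations of 0.067, 0.12, 0.028 and 0.19, and differently numbered livers were not compared. A replicate block gave 7.78% of genes a limma-trend p below 0.05 before adjustment, against 5.55% in the main fit. With a replicate block 1 gene was called higher and 2 lower, *Cebpa*, *Cebpb*, *Nr5a2* and *Onecut1* turned to −0.061, −0.088, 0.080 and 0.36, and log2 *Cebpb*/*Cebpa* to −0.031. The *Apoc3*/*Hnf4a* difference was −3.41 (p = 0.125 in the exact permutation test over 4 pairs, the smallest it can give). With 5 against 4 livers and no depth, changes within the intervals given above were not detectable.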
